A study of Homo sapiens with 6 samples.

Results

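The 49 genes described here encode the machinery that degrades RNA in the nucleus and cytoplasm of human cells. They were matched by gene symbol, from a list of complexes with a known part in RNA decay that was drawn up with earlier results of these data known, and all 49 were found among the 30270 genes of the count table. Transcript levels were measured by sequencing rRNA-depleted total RNA of HEK 293T cells, a transformed human embryonic kidney line grown without treatment. The data held 3 libraries of wild-type cells (WT) and 3 labelled as a TENT3A/B knockout, named ΔTUT4/7 after the other names of the same enzymes, TUT4 and TUT7. The libraries of each group shared 1 cell line and genotype label and were numbered as biological replicates. The labels did not say whether these came from separate cultures, so the p-values below measure the spread between these libraries. According to the paper, the WT cells came from a cell collection and the knockout line, published before, was a gift. Genotype therefore cannot be told apart from other differences between these cell lines.

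TUT4 and TUT7 add uridines to the 3′ ends of messenger RNAs and microRNA precursors, and the U-tail is read by several of the enzymes described here. Most mRNA decay starts with shortening of the poly(A) tail by PAN2-PAN3 and then CCR4-NOT. The LSM1 to LSM7 ring binds the shortened or uridylated end together with PATL1 and activates removal of the cap by DCP2, after which XRN1 digests the body from the 5′ side. From the 3′ side, RNA is digested by the exosome, a ring of non-catalytic subunits that carries the nucleases DIS3, DIS3L or EXOSC10, or by DIS3L2, which acts outside the exosome and prefers U-tailed RNA. The UPF proteins direct transcripts with a premature stop codon into these pathways, and ERI1 with SLBP acts on replication-dependent histone mRNAs, which lack a poly(A) tail. The comparison asked how the mRNAs of these factors differed in cells labelled as lacking the uridylating enzymes.

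The targeted genes and the cell identity were checked before the members. TUT4 was measured at 212, 216 and 206 CPM (counts scaled to TMM-adjusted library size) in WT and at 882, 920.4 and 917 CPM in the libraries labelled ΔTUT4/7, so it was higher in all 3 and its count goes against the label. TUT7 stood at 60.4, 62.6 and 64.8 CPM in WT and at 27.2, 25.2 and 26.5 CPM in the others. A count summed over a gene takes in exons outside a deletion and does not show whether an intact transcript was made, so every direction below rests on the label. Library totals ran from 18757188 to 33148887 counts. Libraries of the same group correlated across genes with r between 0.986 and 0.989, against 0.942 to 0.944 between groups. Of the 9 markers of embryonic kidney cells and of this line, all were detected, from PAX2 at 2.15 CPM in WT to VIM at 496 CPM, and all 9 differed at the threshold used below, 4 higher and 5 lower. VIM stood at 1250.0 CPM in the libraries labelled ΔTUT4/7 (2.52-fold higher), KRT8 went from 9.96 to 3.43 CPM and LHX1 from 3.91 to 1.96 CPM. The part of these differences in the results below was not tested. Of the markers of other cell types, PECAM1 of endothelium and ALB of liver cells stayed at or below 0.228 CPM in every library, and COL1A1, which fibroblasts make in quantity, was measured at 20.4 CPM in WT and 7.45 CPM in the libraries labelled ΔTUT4/7.

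Most genes of the decay machinery were higher in the libraries labelled ΔTUT4/7, and by small amounts. All 49 were tested, with mean counts from 232 for EXOSC4 to 15412 for CNOT1, using edgeR's quasi-likelihood test with Benjamini-Hochberg adjustment over 23952 genes and a call at an FDR under 0.05. At that threshold 30 members were higher, 11 were lower and 8 were not called. The called share was 83.7%, against 57.7% of all genes tested and 75.5% of the 11563 genes averaging at least 200 counts. Higher calls made up 61.2% of the members, against 28.6% of all genes tested and 45.2% of those with the same minimum count, while lower calls made up 22.4%, against 29.0% and 30.3%. The median log2 fold change was 0.37 over the members, -0.02 over all genes tested and 0.11 over those averaging at least 200 counts.

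Changes of 2-fold or more were rare among these genes. PAN2 was the 1 member past that limit, downwards, and no member was 2-fold higher. Close to the limit, this depended on the setting: without WT replicate 3 the log2 fold change of EXOSC4 was 1.06 and that of UPF3B 1.09, and EDC3 passed it downwards in 7 of 15 alternatives, to -1.12 with the offset for GC content and length and to -1.01 without WT replicate 3, ΔTUT4/7 replicate 1 or ΔTUT4/7 replicate 3. For all genes tested, 12.4% were called 2-fold lower and 5.90% 2-fold higher, and 5.26% and 5.12% of those averaging at least 200 counts. The 3 WT libraries did not overlap the 3 others for 41 members, 30 of which were higher and 11 lower, where 62.7% of all genes tested (30.9% higher, 31.8% lower) and 78.2% of those averaging at least 200 counts (46.6% higher, 31.6% lower) did not overlap. LSM7 and CNOT6 were called although 1 library of each group crossed, and DDX6 and CNOT3 did not overlap and were not called. With counts scaled by library size alone, 25 members were called higher and 16 lower. That scaling shifted all genes, with 40.1% of all calls higher, against 49.6% in the main fit.

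**Figure D1:**
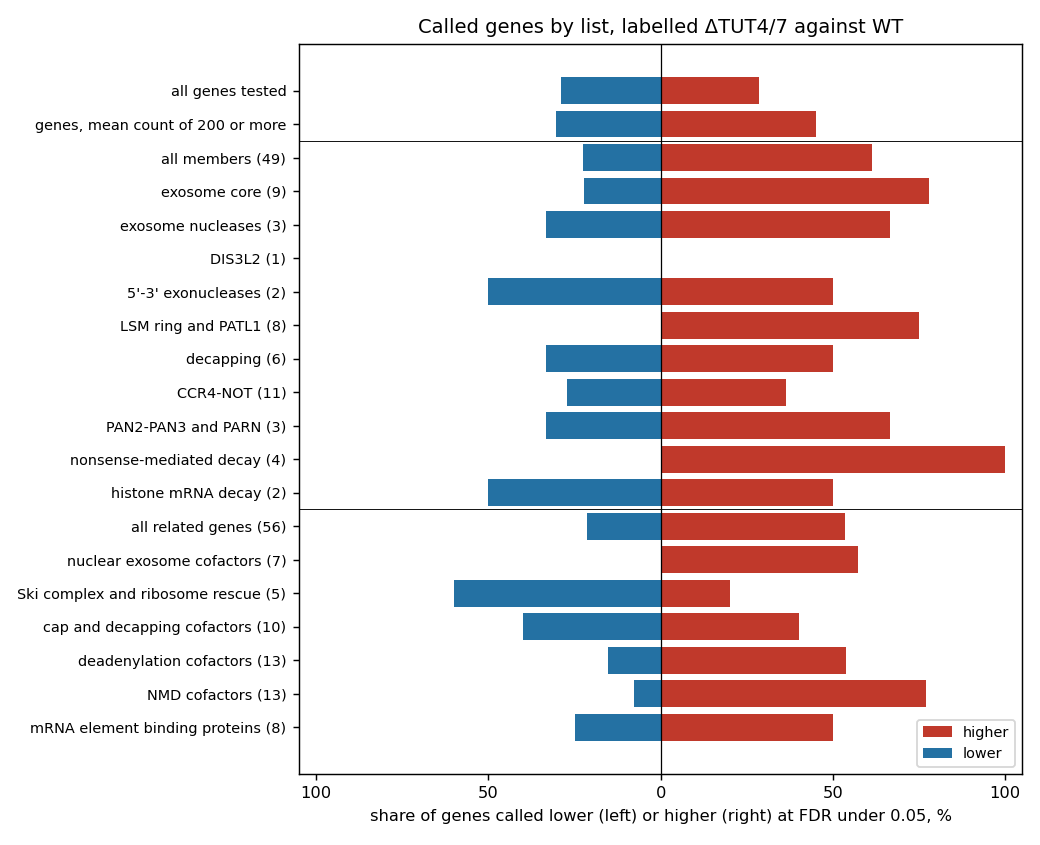
Share of genes called higher (right, red) or lower (left, blue) in the libraries labelled ΔTUT4/7 at an FDR under 0.05 in percent, for all genes tested, genes averaging at least 200 counts, and each list with its number of genes in brackets. The UPF genes of nonsense-mediated decay were all called higher, the CCR4-NOT subunits split into 4 higher and 3 lower, and DIS3L2 was not called.

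Promoter sequences are shown for 4 members that the results turn on: PAN2 and EDC3, which fell most, and UPF3B and UPF1, which rose most among the UPF genes. They are taken from RefSeq on build GRCh38.p14, run 5′ to 3′ on the strand of the gene, and cover the 250 bases before and 50 bases from the start of transcription. The PAN2 promoter lies on the minus strand of chr12:56333951-56334250, that of EDC3 on the minus strand of chr15:74695975-74696274, that of UPF3B on the minus strand of chrX:119852914-119853213, and that of UPF1 on the plus strand of chr19:18831709-18832008. Capitals mark every match to the motifs searched on both strands, which were the E-box CACGTG, the ETS motif CCGGAAGT, the GC box GGGCGG, the CCAAT box CCAAT and the TATA box TATAAA.

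PAN2: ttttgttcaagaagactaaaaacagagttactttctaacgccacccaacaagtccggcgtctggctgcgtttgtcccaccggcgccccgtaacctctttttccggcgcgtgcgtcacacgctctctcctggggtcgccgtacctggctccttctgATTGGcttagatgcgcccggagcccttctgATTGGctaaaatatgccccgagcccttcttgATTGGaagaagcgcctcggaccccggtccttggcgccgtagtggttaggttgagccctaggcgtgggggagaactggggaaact
EDC3: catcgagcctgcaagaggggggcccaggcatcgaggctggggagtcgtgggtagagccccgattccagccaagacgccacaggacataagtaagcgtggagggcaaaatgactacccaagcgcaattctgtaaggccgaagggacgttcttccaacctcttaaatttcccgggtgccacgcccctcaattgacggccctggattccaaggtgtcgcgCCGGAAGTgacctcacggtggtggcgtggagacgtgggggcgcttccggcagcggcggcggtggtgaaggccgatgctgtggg
UPF3B: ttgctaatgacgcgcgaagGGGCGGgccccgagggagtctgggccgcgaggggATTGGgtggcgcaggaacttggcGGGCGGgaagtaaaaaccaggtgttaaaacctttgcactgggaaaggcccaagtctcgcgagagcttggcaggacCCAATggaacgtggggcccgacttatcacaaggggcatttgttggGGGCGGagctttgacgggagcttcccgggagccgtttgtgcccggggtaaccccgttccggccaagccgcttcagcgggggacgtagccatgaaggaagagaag
UPF1: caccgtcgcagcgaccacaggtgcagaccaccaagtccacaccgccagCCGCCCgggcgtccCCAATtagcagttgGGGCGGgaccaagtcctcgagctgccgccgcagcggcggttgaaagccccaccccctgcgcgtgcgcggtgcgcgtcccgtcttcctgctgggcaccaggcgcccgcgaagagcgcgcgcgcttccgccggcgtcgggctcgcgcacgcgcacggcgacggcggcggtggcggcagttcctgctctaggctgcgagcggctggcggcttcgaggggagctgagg

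PAN2 held 3 CCAAT boxes, all on the other strand, and EDC3 held 1 ETS motif. In UPF3B there were 3 GC boxes and 2 CCAAT boxes, and in UPF1 2 GC boxes and 1 CCAAT box, while none of the 4 held an E-box or a TATA box. Over the members, 42 promoters were matched by symbol; EXOSC1, EXOSC4, LSM1, LSM6, CNOT1, CNOT7 and ERI1 had no entry. A GC box stood in 83.3% of the matched member promoters, in 71.8% of the 8743 promoters of genes averaging at least 200 counts and in 44.6% of all 27305. The CCAAT box was found in 40.5%, 37.9% and 35.7%, and the E-box in 9.52%, 10.6% and 7.43%. The ETS motif was found in 11.9% of the member promoters, 9.99% of those averaging at least 200 counts and 4.44% of all, and the TATA box in 2.38%, 5.14% and 12%. Among the members, a GC box stood in 25 of 27 promoters of higher genes and in 6 of 9 promoters of lower genes. These matches describe the letters of the windows and were not tested as binding sites.

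Within the deadenylases, PAN2 and PAN3 moved in opposite directions. PAN2, the catalytic subunit of the complex that trims long poly(A) tails (hg38 chromosome 12, 56316223 to 56334053, minus strand), was measured at 131, 133 and 128 CPM in WT and at 50.5, 48.8 and 51.3 CPM in the libraries labelled ΔTUT4/7. All 3 of the latter lay far below WT, with little spread in either group. It was 2.60-fold lower, with a log2 change of -1.38 ± 0.05 (SE) and an adjusted p of 1.58e-15. PAN3, the subunit that recruits PAN2 to the mRNA (chromosome 13, 28138506 to 28295335, plus strand), stood at 62.8, 65.6 and 60.0 CPM in WT and at 83.2, 85.6 and 85.0 CPM in the others. It was higher in all 3, by 0.43 ± 0.05 on the log2 scale (adjusted p 3.56e-07). PARN, a deadenylase that also trims non-coding RNA ends, rose from 59.7 ± 1.26 CPM (SD, n = 3) to 77.1 ± 2.77 CPM, a log2 change of 0.37 ± 0.05.

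The CCR4-NOT complex did not move as a unit. Of its 11 members 4 were called higher and 3 lower, and the median log2 fold change was -0.03. The shares were 63.6% called, 36.4% higher and 27.3% lower. Among genes averaging at least 200 counts they were 75.5%, 45.2% and 30.3%, so such a split was also common outside the complex. Higher were CNOT2 of the NOT module (0.42 ± 0.05), CNOT9, which binds the silencing factors of the microRNA pathway (0.51 ± 0.04), and CNOT10 and CNOT11, which form a module of their own on the scaffold (0.46 ± 0.05 and 0.52 ± 0.05). CNOT9 was measured at 113, 117 and 119 CPM in WT and at 165, 165 and 167 CPM in the libraries labelled ΔTUT4/7. Its groups were clearly separate, and so were those of CNOT10 and CNOT11.

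Lower were the scaffold CNOT1 and the CCR4-type nucleases. CNOT1 (chromosome 16, 58519951 to 58629885, minus strand) was measured at 632, 665 and 673 CPM in WT and at 594, 579.8 and 605 CPM in the others, a log2 change of -0.15 ± 0.04 with adjusted p 0.00539. The groups were close and did not overlap. CNOT6L, one of the paired CCR4 nucleases, was measured at 90.9, 107 and 84.0 CPM in WT and at 62.1, 65.3 and 64.1 CPM in the libraries labelled ΔTUT4/7. Its WT libraries spread widely and all lay above the others, and the log2 fold change was -0.56 ± 0.08. For CNOT6, the other nuclease of that type, the change was -0.18 ± 0.05 with 1 library of each group near 183 CPM.

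The other catalytic pair, CNOT3 and CNOT4 showed no called change. CNOT7 and CNOT8, the CAF1-type nucleases, had log2 fold changes of -0.09 ± 0.05 (adjusted p 0.133) and -0.03 ± 0.05 (0.623). CNOT3 of the NOT module and CNOT4, a ubiquitin ligase that associates with the complex, had -0.10 ± 0.06 (0.151) and -0.03 ± 0.06 (0.620). With scaling by library size alone, which moved the median of all genes by -0.11, all 4 were called lower. CNOT7 was also called lower without WT replicate 3 or ΔTUT4/7 replicate 2.

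**Figure D2:**
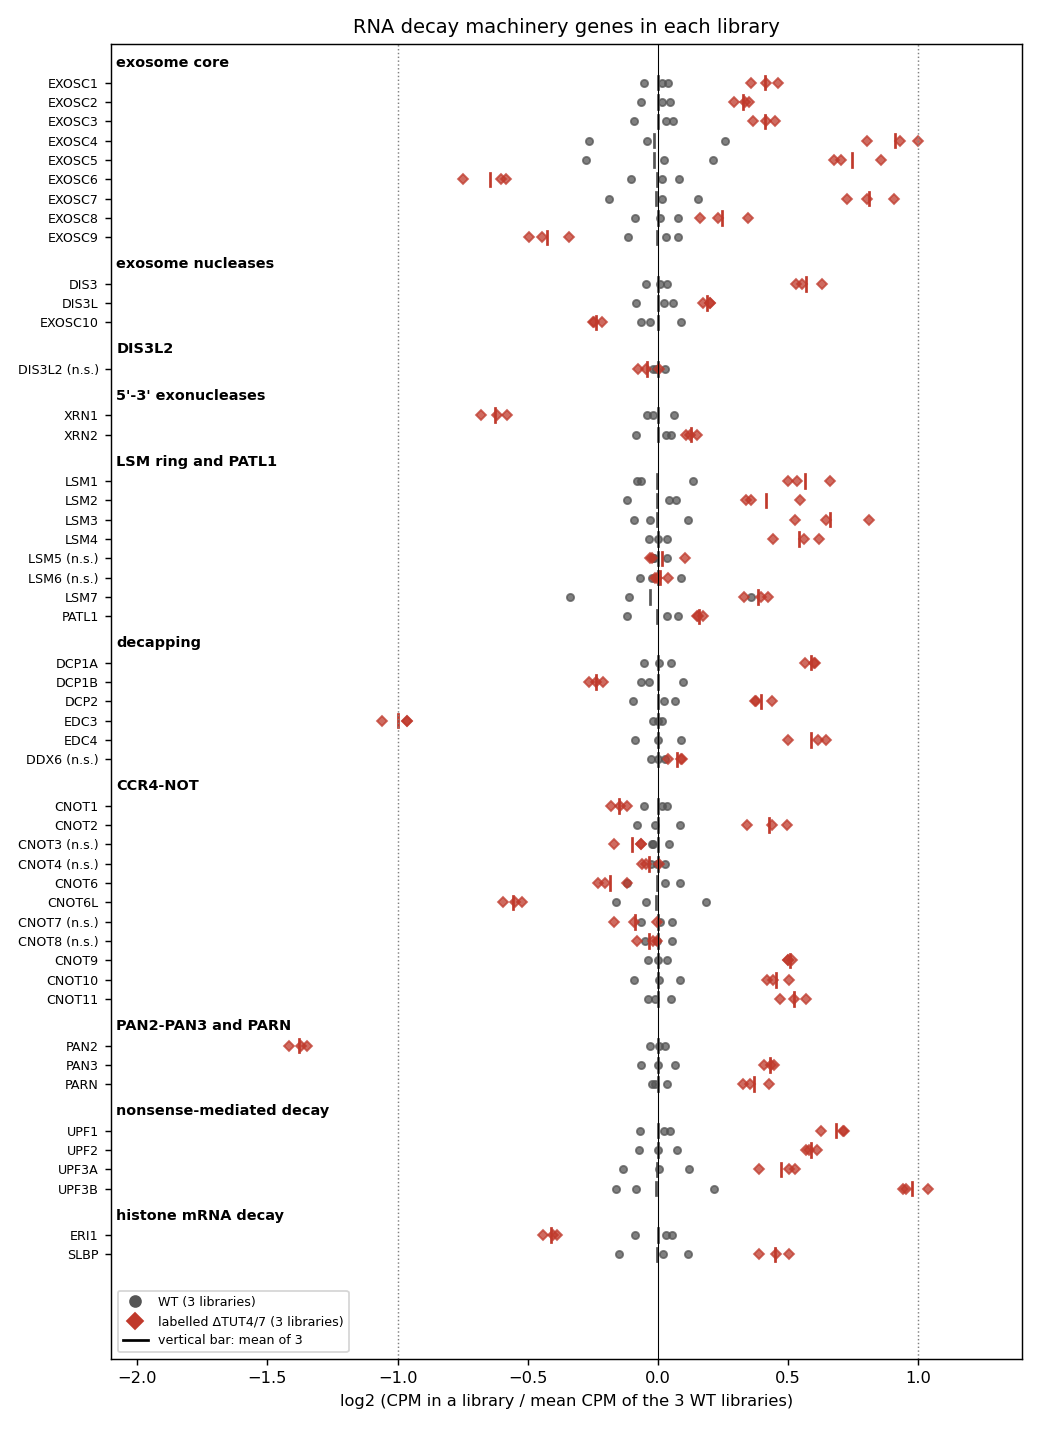
Each of the 49 genes in each library, as log2 of its CPM over the mean of the 3 WT libraries (x axis); grey circles are WT libraries, red diamonds libraries labelled ΔTUT4/7, vertical bars the mean of 3, dotted lines a 2-fold change, and n.s. a gene not called. PAN2 lies furthest to the left with a log2 change of -1.38, EDC3 follows at -0.99, and UPF3B lies furthest to the right at 0.97.

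Among the decapping factors, the enhancers EDC3 and EDC4 went opposite ways. EDC3, a scaffold of the decapping complex (chromosome 15, 74630558 to 74696292, minus strand), was measured at 109, 108 and 106 CPM in WT and at 55.1, 51.5 and 55.1 CPM in the libraries labelled ΔTUT4/7. The decrease was just short of 2-fold on average, with a log2 change of -0.99 ± 0.05 and an adjusted p of 4.21e-13. EDC4, which holds DCP1 and DCP2 together in human cells, rose from 75.7 ± 4.63 to 114 ± 6.0 CPM, by 0.59 ± 0.06 on the log2 scale. DCP2, the decapping enzyme itself (chromosome 5, 112976702 to 113022195, plus strand), was measured at 244, 237 and 218 CPM in WT and at 301, 302 and 316 CPM in the others. It was higher in all 3, by 0.40 ± 0.05 (adjusted p 2.57e-07).

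The DCP2 activators DCP1A and DCP1B also went opposite ways. DCP1A rose from 79.4 ± 2.82 to 119.5 ± 1.63 CPM, a log2 change of 0.59 ± 0.05. DCP1B was measured at 21.2, 21.6 and 23.7 CPM in WT and at 19.2, 18.8 and 18.4 CPM in the libraries labelled ΔTUT4/7, a log2 change of -0.24 ± 0.08 with adjusted p 0.0143. Its call depended on WT replicate 3, without which the adjusted p was 0.0674. DDX6, the helicase that links deadenylation to decapping, stood at 349.9 ± 6.45 and 368 ± 7.37 CPM and was not called (log2 fold change 0.07 ± 0.04, adjusted p 0.144).

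In the ring that binds deadenylated and U-tailed ends, no member was called lower and 5 of 7 LSM genes were called higher. Their called share was 71.4%, against 75.5% of genes averaging at least 200 counts, of which 45.2% were higher and 30.3% lower. LSM1, the subunit found in the cytoplasmic ring alone (chromosome 8, 38163335 to 38176730, minus strand), was measured at 22.6, 22.9 and 26.3 CPM in WT and at 33.9, 37.8 and 34.7 CPM in the libraries labelled ΔTUT4/7. It was higher in all 3, by 0.56 ± 0.08 on the log2 scale (adjusted p 1.56e-06). LSM2, LSM3 and LSM4, which are shared with the nuclear ring of U6 snRNA, rose by 0.41 ± 0.09, 0.66 ± 0.07 and 0.54 ± 0.05. The shared subunits LSM5 and LSM6 had log2 fold changes of 0.02 ± 0.06 (adjusted p 0.835) and 0.00 ± 0.09 (0.970), and their libraries overlapped.

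LSM7 and PATL1 were the least certain calls of this group. For LSM7, the WT libraries spread from 9.65 to 15.7 CPM and the others from 15.4 to 16.3 CPM, so WT replicate 3 lay inside the range of the libraries labelled ΔTUT4/7. Its log2 fold change of 0.37 ± 0.15 had an adjusted p of 0.0499, and the call was lost in 11 of 15 alternative settings, among them each removal of a library other than WT replicate 3. The value moved to 0.60 (adjusted p 9.07e-05) without WT replicate 3 and to 0.22 (0.131) without WT replicate 2. PATL1, the bridge between the ring and the decapping enzyme, stood at 79.0 ± 5.49 and 88.2 ± 0.846 CPM, a log2 change of 0.16 ± 0.05 (adjusted p 0.0180) that lost its call in 4 settings, 1 of them without WT replicate 1. LSM8, which replaces LSM1 in the nuclear ring and is counted with the related genes, fell from 109 ± 2.45 to 76.5 ± 4.22 CPM, with a log2 change of -0.51 ± 0.05 (adjusted p 1.90e-08).

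The 5′ to 3′ exonucleases also moved in opposite directions. XRN1, which digests decapped mRNA in the cytoplasm (chromosome 3, 142306607 to 142448062, minus strand), was measured at 204, 215 and 201 CPM in WT and at 138, 129 and 134 CPM in the libraries labelled ΔTUT4/7. The groups were far apart, and the log2 fold change was -0.63 ± 0.05 with an adjusted p of 1.95e-10. XRN2, its nuclear counterpart, was measured at 147, 161 and 159 CPM in WT and at 168, 173 and 169 CPM in the others. The small increase of 0.13 ± 0.05 (adjusted p 0.0254) lost its call in 6 of 15 alternative settings, including those without WT replicate 1, ΔTUT4/7 replicate 2 or ΔTUT4/7 replicate 3. Its adjusted p was 0.860 at the highest.

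Of the 9 core subunits of the exosome 7 were called higher and 2 lower. These shares were 77.8% and 22.2%, against 45.2% and 30.3% of genes averaging at least 200 counts. The RNase PH-like ring has 6 subunits, and those of them that rose were EXOSC4, EXOSC5, EXOSC7 and EXOSC8. EXOSC4 (chromosome 8, 144078648 to 144080648, plus strand) was measured at 6.47, 5.54 and 7.96 CPM in WT and at 11.6, 13.3 and 12.7 CPM in the libraries labelled ΔTUT4/7, a log2 change of 0.90 ± 0.13 and the largest increase among the exosome genes. EXOSC5 and EXOSC7 followed with 0.73 ± 0.12 and 0.80 ± 0.08, and EXOSC8 rose by 0.25 ± 0.06. No library of 1 group reached the range of the other for any of them.

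The ring subunits EXOSC6 and EXOSC9 were lower. EXOSC6 (chromosome 16, 70246778 to 70251940, minus strand) was measured at 92.2, 85.1 and 96.6 CPM in WT and at 54.3, 60.2 and 60.9 CPM in the others, a log2 change of -0.65 ± 0.06 with adjusted p 5.57e-09. EXOSC9 (chromosome 4, 121801318 to 121817021, plus strand) was measured at 78.3, 86.7 and 89.6 CPM in WT and at 62.4, 67.0 and 60.2 CPM in the libraries labelled ΔTUT4/7, a log2 change of -0.43 ± 0.06 (adjusted p 2.02e-06). In both genes all WT libraries were above all others. The cap subunits EXOSC1, EXOSC2 and EXOSC3, which bind RNA at the entry to the ring, rose by 0.41 ± 0.07, 0.32 ± 0.05 and 0.41 ± 0.06.

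Of the exosome's nucleases, DIS3 changed most. DIS3, which works in the nucleus (chromosome 13, 72752169 to 72782096, minus strand), was measured at 218, 230.4 and 226 CPM in WT and at 324, 347 and 329 CPM in the libraries labelled ΔTUT4/7. It was higher in all 3, by 0.57 ± 0.04 on the log2 scale (adjusted p 3.76e-10). DIS3L, the cytoplasmic form, rose from 51.0 ± 2.62 to 58.2 ± 0.632 CPM (0.19 ± 0.06, adjusted p 0.00693), and its call was lost with library size alone, upper-quartile scaling and a minimum mean count of 50. EXOSC10, the nuclear and nucleolar nuclease, fell from 146 ± 8.16 to 124 ± 1.63 CPM, a log2 change of -0.24 ± 0.05 (adjusted p 0.000209).

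DIS3L2, the nuclease of uridylated RNA, did not pass the test. DIS3L2 (chromosome 2, 231961245 to 232344350, plus strand) was measured at 32.1, 31.9 and 32.9 CPM in WT and at 31.3, 32.4 and 30.6 CPM in the libraries labelled ΔTUT4/7. The groups overlapped, and the log2 fold change was -0.04 ± 0.06 with adjusted p 0.612. Over the 15 tested alternatives it ran from -0.17 to -0.02 and was called lower in 2 of them, library size alone and the offset for GC content and length, with adjusted p-values of 0.0170 at the lowest.

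All 4 UPF genes of nonsense-mediated decay were called higher, as were 45.2% of genes averaging at least 200 counts. UPF1, the helicase at the centre of the pathway (chromosome 19, 18831959 to 18868230, plus strand), was measured at 87.8, 86.3 and 81.0 CPM in WT and at 139, 131 and 139 CPM in the libraries labelled ΔTUT4/7, a log2 change of 0.69 ± 0.05 (adjusted p 1.07e-10). UPF3B, which connects the exon junction complex to UPF2 (chromosome X, 119805311 to 119852998, minus strand), was measured at 29.7, 28.2 and 36.6 CPM in WT and at 60.4, 64.6 and 61.0 CPM in the others. It was 1.96-fold higher, the largest increase of the 49 genes, with a log2 change of 0.97 ± 0.08 (adjusted p 5.10e-08).

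UPF2, the adaptor between UPF1 and UPF3, rose from 87.5 ± 4.40 to 131 ± 2.01 CPM (0.58 ± 0.05). UPF3A, a paralog of UPF3B, was measured at 19.4, 16.3 and 17.9 CPM in WT and at 23.3, 25.3 and 25.7 CPM in the libraries labelled ΔTUT4/7 (0.47 ± 0.08, adjusted p 5.08e-05). For all 4 genes the groups were separate. Of the histone mRNA factors, ERI1, an exonuclease that trims the stem-loop end, fell from 48.4 ± 2.54 to 36.4 ± 0.712 CPM (-0.41 ± 0.06, adjusted p 7.05e-06), and SLBP, which binds the stem-loop, rose from 67.8 ± 6.23 to 92.5 ± 3.65 CPM (0.44 ± 0.06, adjusted p 2.53e-06).

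To compare the abundance of the components, CPM was divided by transcript length in kb, taken from the Ensembl canonical transcript. The ranking assumes that the reads of each gene came from that transcript, which was not checked. The overlaps with other genes given below also bear on it. In WT these levels ran from 6.07 ± 0.340 CPM per kb for LSM6 to 78.1 ± 2.58 for CNOT1, with DDX6 next at 57.1 ± 1.05. The exosome core was uneven on this scale, with EXOSC9, EXOSC2 and EXOSC8 at 53.5 ± 3.71, 52.6 ± 2.04 and 49.3 ± 2.84 CPM per kb and EXOSC4 and EXOSC5 at 7.90 ± 1.45 and 8.33 ± 1.38. Neighbours in each of these sets lay within their spread. In the libraries labelled ΔTUT4/7, the core ran from 11.3 ± 0.696 CPM per kb for EXOSC6 to 65.9 ± 1.31 for EXOSC2, with EXOSC9 at 39.8 ± 2.20 and EXOSC4 at 14.9 ± 1.02. DIS3 stood at 21.3 ± 0.616 in WT and 31.6 ± 1.14 in the others, DIS3L at 13.5 ± 0.694 and 15.4 ± 0.167, and DIS3L2 at 9.60 ± 0.164 and 9.34 ± 0.260. PAN2 and PAN3 changed places, from 28.9 ± 0.570 and 11.2 ± 0.505 CPM per kb in WT to 11.1 ± 0.278 and 15.1 ± 0.223.

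**Figure D3:**
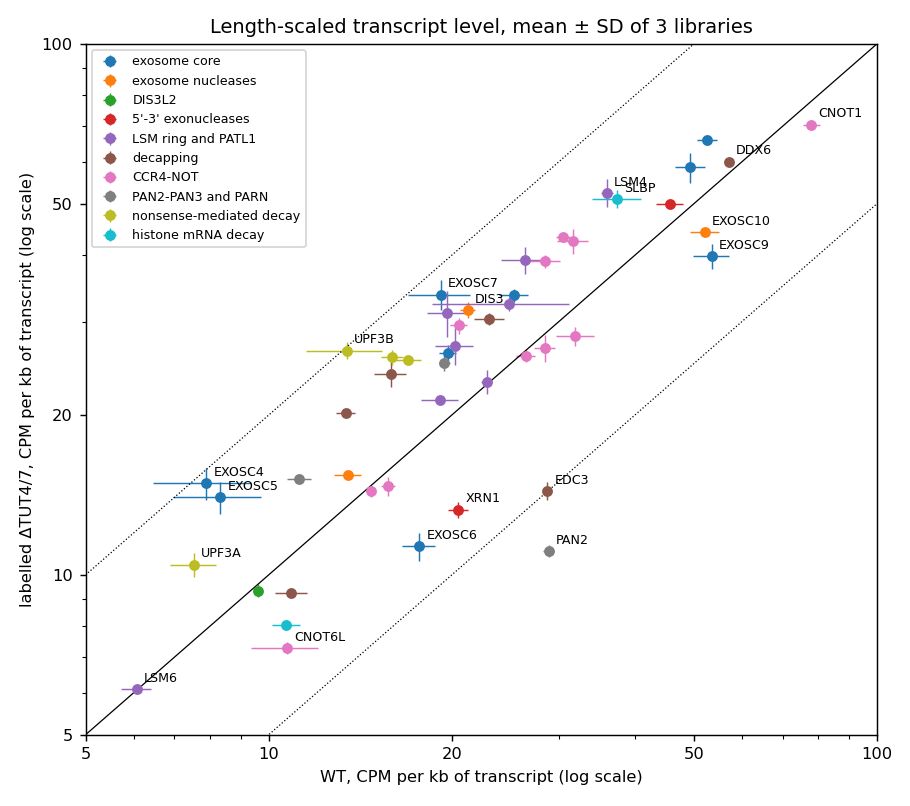
Transcript level in CPM per kb of transcript in WT (x axis) and in the libraries labelled ΔTUT4/7 (y axis), both log scales, as mean ± SD of 3 libraries and coloured by group; the solid line marks equal levels and dotted lines a 2-fold difference. PAN2 lies below the lower dotted line, EDC3 next to it, and UPF3B and EXOSC4 just inside the upper one.

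For 6 pairs of paralogs or related nucleases, the ratio of their CPM was compared within each library, where scaling does not enter. The DCP1B to DCP1A ratio was 0.258, 0.271 and 0.310 in WT and 0.163, 0.156 and 0.153 in the libraries labelled ΔTUT4/7, a log2 difference of -0.83. The ratio of DIS3L2 to DIS3 was 0.148, 0.138 and 0.146 against 0.0964, 0.0932 and 0.0931, a log2 difference of -0.61. For UPF3A to UPF3B the mean ratio went from 0.573 ± 0.0818 to 0.400 ± 0.0193, for CNOT6L to CNOT6 from 0.472 ± 0.0309 to 0.365 ± 0.0142, and for DIS3L to DIS3 from 0.227 ± 0.00524 to 0.175 ± 0.00596, with log2 differences of -0.51, -0.37 and -0.38. In these 5 pairs the groups did not overlap and the two-sided exact permutation p was 0.1, the smallest that 3 against 3 allows, or 0.12 after adjustment over 6 pairs. The sixth pair, CNOT8 to CNOT7, went from 0.331 ± 0.00306 to 0.344 ± 0.0205, a log2 difference of 0.05 with an exact permutation p of 0.5.

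**Figure D4:**
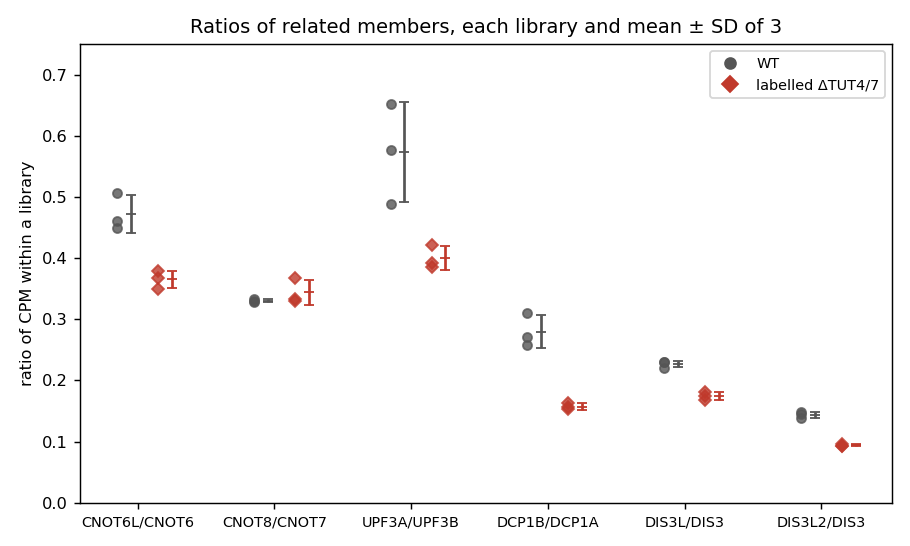
Ratio of the CPM of related members within each library (y axis) for 6 pairs (x axis), with grey circles for WT, red diamonds for the libraries labelled ΔTUT4/7, and dashes with bars for mean ± SD of 3. DCP1B to DCP1A shows the largest shift, from 0.280 to 0.157, and CNOT8 to CNOT7 overlaps between the groups.

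The cofactors of these complexes were described with 56 related genes in 6 lists. All 56 were tested, 30 were called higher (53.6%) and 12 lower (21.4%), and the median log2 fold change was 0.16. The called share, 42 of 56, was near the 75.5% of genes averaging at least 200 counts, of which 45.2% were higher and 30.3% lower. Scaled by library size alone, 23 were called higher and 16 lower, where 40.1% of the calls over all genes were higher. Cofactors of nonsense-mediated decay had 10 higher and 1 lower of 13 (84.6% called, 76.9% higher). EIF4A3, the helicase that anchors the exon junction complex, rose from 129 ± 4.64 to 231 ± 0.708 CPM (0.84 ± 0.04), and NBAS, which takes part in nonsense-mediated decay and in Golgi to ER transport, fell from 96.7 ± 6.30 to 45.4 ± 2.43 CPM (-1.09 ± 0.06). The deadenylation cofactors had 7 higher and 2 lower of 13 (69.2% called, 53.8% higher, 15.4% lower). Their called share was near that background, the higher share above it and the lower share below it. The 2 lower genes were TNRC6B, a GW182 protein that recruits the deadenylases to microRNA targets, from 331 ± 10.3 to 149 ± 6.72 CPM (-1.15 ± 0.05), and BTG2, which stimulates CCR4-NOT, from 52.2 ± 4.78 to 14.4 ± 0.734 CPM (-1.86 ± 0.08).

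The other 4 lists held 5 to 10 genes each and are set against the same background of 75.5% called, 45.2% higher and 30.3% lower. Nuclear exosome cofactors had 4 higher and 0 lower of 7 (57.1% called), among them ZCCHC8 of the nuclear exosome targeting complex (0.61 ± 0.05) and the helicase MTREX (0.28 ± 0.05). The Ski complex and ribosome rescue list had 1 higher and 3 lower of 5, with PELO, which releases stalled ribosomes, at 0.74 ± 0.07 and its partner HBS1L at -0.50 ± 0.04. Cap and decapping cofactors had 4 higher and 4 lower of 10, with LSM14B, a paralog of the P-body protein LSM14A, at 0.56 ± 0.07 and LSM8 as given above. Proteins that bind mRNA elements had 4 higher and 2 lower of 8, with ZFP36L2, which recruits deadenylases to AU-rich elements, at 0.67 ± 0.07 and ELAVL1, which stabilises such mRNAs, at 0.42 ± 0.04. Past 2-fold were 1 higher and 4 lower related genes, namely NOCT (1.06 ± 0.08) and BTG2, TNRC6B, NBAS and ZFP36 (-1.02 ± 0.29). NOCT and ZFP36 are named because they passed that limit, after their values were seen.

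Genes near a member on the chromosome moved the same way for some members and the opposite way for others. These values are given beside the members. The same was not computed for all expressed genes, and the median log2 fold change of those averaging at least 200 counts was itself 0.11. For each member, the median log2 fold change was taken over expressed genes within 5 Mb, from 21 genes around DIS3 to 214 around CNOT3. Across the 49 members, their own change correlated with that of the neighbours with r = 0.42 (Spearman rho 0.44), a description over genes that share libraries and, in part, neighbours. The neighbour median ran from -0.87 around EXOSC9 to 1.04 around UPF3A. All 24 of the expressed genes around UPF3A, near the end of chromosome 13, were higher, and 3 of 31 around EXOSC9 and 2 of 28 around CNOT7 were. Around the lower members PAN2, DCP1B and CNOT1, 94 of 144, 65 of 80 and 35 of 48 neighbours were higher. Around CNOT6 and EXOSC6, also lower, 53 of 78 and 73 of 132 were. For the lower members EDC3, CNOT6L and ERI1 the counts were 21 of 87, 9 of 39 and 8 of 39. For EXOSC10 and XRN1, lower as well, they were 33 of 83 and 21 of 44. With the neighbour median subtracted, the sign turned for 4 called members, to 0.44 for EXOSC9, -0.027 for PATL1, -0.57 for UPF3A and 0.22 for ERI1. Other increases became small, from 0.59 to 0.04 for DCP1A, 0.41 to 0.02 for EXOSC1, 0.32 to 0.07 for EXOSC2 and 0.58 to 0.14 for UPF2. The median over the members was 0.37 before and 0.19 after subtraction.

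Some members moved against their surroundings and others did not. PAN2 lay among genes with a median of 0.22 and stood at -1.60 after subtraction. EXOSC8, at 0.25 itself, lay among genes with a median of -0.59 and stood at 0.83. CNOT7 was not called at -0.09 and lay among genes with a median of -0.71, so its 0.62 came from the subtraction. EDC3, CNOT6L and ERI1 were low in regions that were low as well, with neighbour medians of -0.38, -0.40 and -0.63. UPF1 had neighbours with a median of 0.04 and stood at 0.65, and UPF3B had neighbours at 0.45 and stood at 0.52. The part of these regional shifts in the members' differences was not tested.

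**Figure D5:**
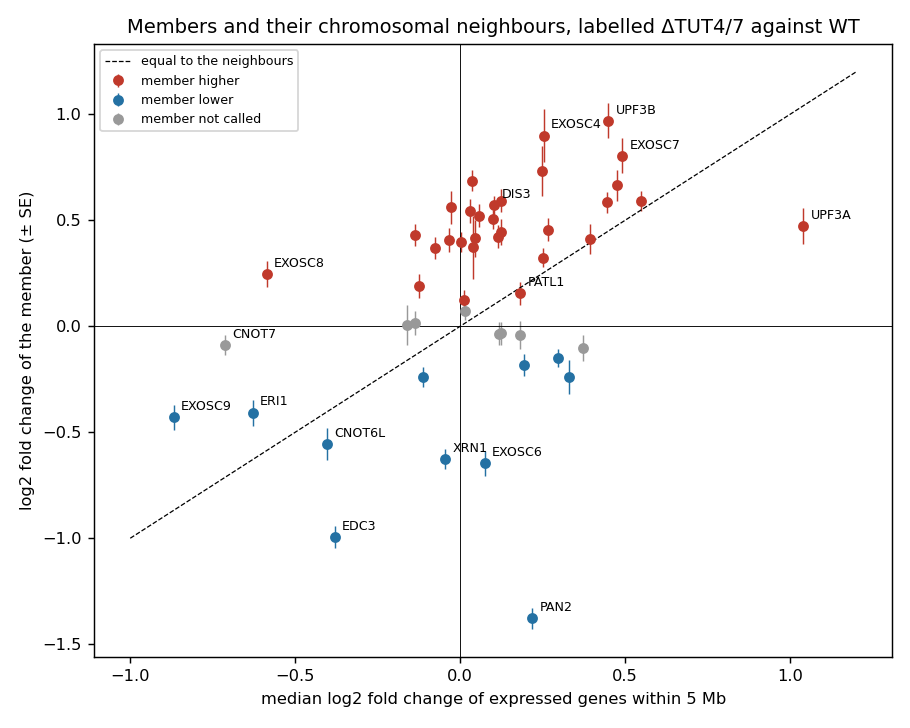
Log2 fold change of each member ± SE (y axis) against the median log2 fold change of expressed genes within 5 Mb (x axis), in red for members called higher, blue for lower and grey for not called; the dashed line marks a change equal to the neighbours. PAN2 lies far below the line at a neighbour median of 0.22, UPF3A lies at the far right at 1.04 and EXOSC9 at the far left at -0.87.

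Reads from overlapping genes could bear on several members, because the strand setting of the counting was not given in the sources used here. Overlap was taken between whole gene spans, introns included, and shared reads were not measured. In all, 30 members overlapped another counted gene, and for 14 the partner held at least 10% of the member's count. XRN1 is among the 30 only through U8, a small RNA gene at 3.5 counts. The span of U8 also overlapped EXOSC7 and DCP1A, many Mb away, and that of Metazoa_SRP overlapped both PAN2 and CNOT2. Neither is read as a true overlap. The largest were BAG4 over LSM1 at 365% of its mean count, ZDHHC3 over EXOSC7 at 300.2%, CCNA2 over EXOSC9 at 231%, DCAF10 over EXOSC3 at 134%, SUPT20H over EXOSC8 at 117% and CLK3 over EDC3 at 108%, and CACNA1C over DCP1B had 83.7%. PAN2, UPF3B and UPF1 had no partner above 5.50%. Of 7 named pseudogenes of 5 members, CNOT6LP1 reached 12% of CNOT6L and UPF3AP1 11.7% of UPF3A, so the division of reads between these copies is uncertain.

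Several members share a start region with a gene on the opposite strand, and those partners are named because of that position, after their values were seen. There were 14 such protein-coding pairs with starts within 1000 bases, and both genes were called in 8 of them. Taken singly, 75.5% of genes averaging at least 200 counts were called, and the pairs were not tested against that share. The directions matched in 4 pairs: EXOSC1 with ZDHHC16, EXOSC7 with ZDHHC3, LSM1 with BAG4 and SLBP with TACC3. They were opposite in the other 4: LSM3 with XPC, LSM7 with SPPL2B, CNOT9 with USP37 and CNOT11 with TBC1D8. CNOT11 and TBC1D8 start 20 bases apart and had log2 fold changes of 0.52 and -0.17, and CNOT7 and VPS37A start 53 bases apart and had -0.09 (not called) and -0.92.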

How the data were processed

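RNA-seq libraries of 3 WT and 3 ΔTUT4/7 samples were compared. Paired-end reads had been aligned by the authors to hg38 using STAR 2.7.3a, annotated with Ensembl release 102 in Partek Flow 10.0.22 and deposited as estimated counts per gene, which split shared reads by an expectation-maximisation model. A second deposited table, the authors' own comparison (p-values, ratios and fold changes), was not used. After rounding of the counts, genes with a largest count above 12 were tested (23952 genes; the other 6318 held 0.0960% of counts) with edgeR 4.0.16 under R 4.3.3, using TMM factors, robust quasi-likelihood fits and group as the only term. Log2 fold changes carry standard errors, CPM uses TMM-scaled library sizes, and mean ± SD is over 3 libraries. Gene ends are printed 1 base below the deposited stop, which lay past the GENCODE release 44 end for 18910 of 19875 genes with the same start. All members, the 2 related genes of smallest p per list, TUT4 and TUT7 were named by rule. The members and lists were chosen with earlier results of these data known. PTPRC, a planned leukocyte marker, was not analysed here. Alternatives used DESeq2 1.42.0 and limma 3.58.1 (voom), other scalings and filters, a replicate block, libraries left out, an offset for GC content and length, and subtraction of the change of neighbouring genes (mean count of 50 or more, at least 10 genes). The steps were tested on simulated data.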

Additional observations from a re-analysis of the deposited data

How the results depend on the processing

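Of the 41 called members, 35 kept their call and sign in all 15 tested alternatives and none was called in the opposite direction. The members called ranged from 38 without WT replicate 1 to 43 with the offset for GC content and length. Library size alone and upper-quartile scaling moved the median of all genes by -0.11 and -0.10, which split the member calls into 25 higher and 16 lower, or 26 and 15. Calls were lost for EXOSC8 (library size alone), DIS3L, XRN2, LSM7, PATL1 and DCP1B, with the highest adjusted p of each at 0.0695, 0.286, 0.860, 0.175, 0.536 and 0.0674. Under 1 or more alternatives DIS3L2, DDX6, CNOT3, CNOT4, CNOT7 and CNOT8 gained a call, and the cause was not tested.

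The sign of small, uncalled changes turned for LSM5, to -0.099 (library size alone), -0.085 (upper-quartile scaling) and -0.048 (mean count of at least 50), for LSM6, to -0.11, -0.096 and -0.059 and to -0.019 with the GC and length offset, for DDX6, to -0.043 and -0.028 (library size alone, upper-quartile scaling), and for CNOT7, to 0.035 with the GC and length offset. Leaving out 1 library gave -0.028 to 0.045 for LSM5 and -0.034 to 0.046 for LSM6. Subtracting the neighbours turned EXOSC9 to 0.44, PATL1 to -0.027, UPF3A to -0.57 and ERI1 to 0.22. Of the other members, 34 moved by more than the spread between replicates and 11 did not, and the median over the members went from 0.37 to 0.19. That subtraction has no test.

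With each library left out in turn, 27 to 30 members were called higher and 11 to 12 lower, and of the related genes 26 to 29 higher and 12 to 14 lower. The log2 differences of the ratios ran from -0.88 to -0.75 for DCP1B to DCP1A, -0.64 to -0.59 for DIS3L2 to DIS3, -0.62 to -0.41 for UPF3A to UPF3B, -0.40 to -0.32 for CNOT6L to CNOT6, -0.40 to -0.35 for DIS3L to DIS3 and 0.01 to 0.08 for CNOT8 to CNOT7.

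Deviations of same-numbered libraries correlated at 0.0519, -0.0115 and -0.0222, and those of the other pairs ran from -0.0896 to 0.0954. These values give no sign that the replicate numbers paired the samples, and they cannot exclude it with so few libraries. With the replicate number as a block, 30 members were called higher and 11 lower, and 30 and 13 related genes; the block changed no call of a member.

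With 3 libraries per group, an exact test of 1 value cannot go below 0.1. Depth bears most on EXOSC4 among the members, with a mean count of 232, and on ZFP36 among the related genes, with 25.2.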
